A study of Mus musculus with 41 samples.

Results

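Trimethylation of lysine 4 of histone H3 (H3K4me3) was compared between mouse embryonic stem cells (mESC) of the E14 line grown in serum with LIF (mESC-ser) and in 2i medium with LIF (mESC-2i). H3K4me3 was profiled by CUT&Tag, in which an antibody directs the Tn5 transposase to cut and tag the DNA beside a histone modification. The 4 samples used here, 2 for each medium, are part of a series of 41 mouse samples, of which 8 profile H3K4me3. All 4 samples were untreated whole cells of the same line and differed, by their labels, in the medium and in the label field that names the mark, so that any technical difference that goes with the medium cannot be told apart from it. The authors pooled both samples of a medium before calling peaks. Each medium therefore has 1 peak list and no value below has a replicate error. Intervals are 95% intervals that cover counting error only, and no difference between the media was tested.

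H3K4me3 is laid down around transcription start sites (TSS) by the SET1 and MLL (KMT2) complexes, largely at CpG-rich promoters, and at active genes it lies beside acetylated histones. In stem cells, many promoters of developmental regulators carry it together with H3K27me3, the mark set by Polycomb repressive complex 2, a state called bivalent. LIF maintains self-renewal in both media. 2i medium is free of serum and holds a MEK inhibitor (PD0325901), which blocks FGF-ERK signalling, and a GSK3 inhibitor (CHIR99021), which activates Wnt signalling. The study's methods call mESC-ser primed and mESC-2i naive.

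The peaks of both lists on chromosomes 1 to 19 and X were merged, and each of the 19278 merged regions was classed as serum-only, 2i-only or shared by an overlap of at least 1 bp. Of these, 10664 regions were shared (55.3%), 8306 were 2i-only (43.1%) and 308 were serum-only (1.60%). The mESC-ser list held 11002 peaks over 40.9 Mb and the mESC-2i list 19362 peaks over 49.8 Mb. The mESC-2i list thus contained nearly the whole mESC-ser list: 97.2% of the serum peaks (interval 96.9 to 97.5%) were overlapped by a 2i peak, whereas 57.1% of the 2i peaks (56.4 to 57.8%) were overlapped by a serum peak.

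The lists reached to different depths. Their signal is fragment coverage that was not scaled for sequencing depth, so signal is given here relative to the shared regions of the same list. The median shared region had a maximum signal of 293 in mESC-ser and 153 in mESC-2i. Dividing by these medians gives the relative height, and the total signal over a peak was divided by its own shared median in the same way (relative total). A change in the overall level of H3K4me3 is not visible on this scale. The weakest serum peak had a relative total of 0.582 and the weakest 2i peak one of 0.280, so the serum list ends at a higher level. By the methods, a set top fraction of called peaks was kept, so this end level was set for each list separately. Of the 8306 2i-only regions, 2020 (24.3%, 23.4 to 25.3%) lay above the lowest relative total of the serum list, and the others lay below it, where a serum peak of the same relative size would not have been called. With each list ordered by total signal and divided into 10 parts of equal size, the highest part of the 2i list was overlapped by serum peaks in 95.6% of cases and the lowest part in 9.97%. In the serum list the share was 99.8% in the highest and 91.4% in the lowest part. When the 2i list was cut to its 11002 strongest peaks, 8995 regions were shared, 1977 were serum-only and 1861 were 2i-only. Lists of equal length with mostly 1-to-1 overlaps leave nearly equal numbers on both sides, so these 2 counts say nothing of an excess in either medium. Class shares and gene calls that this setting turns or moves by over 1.5 times are given below with it.

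**Figure D1:**
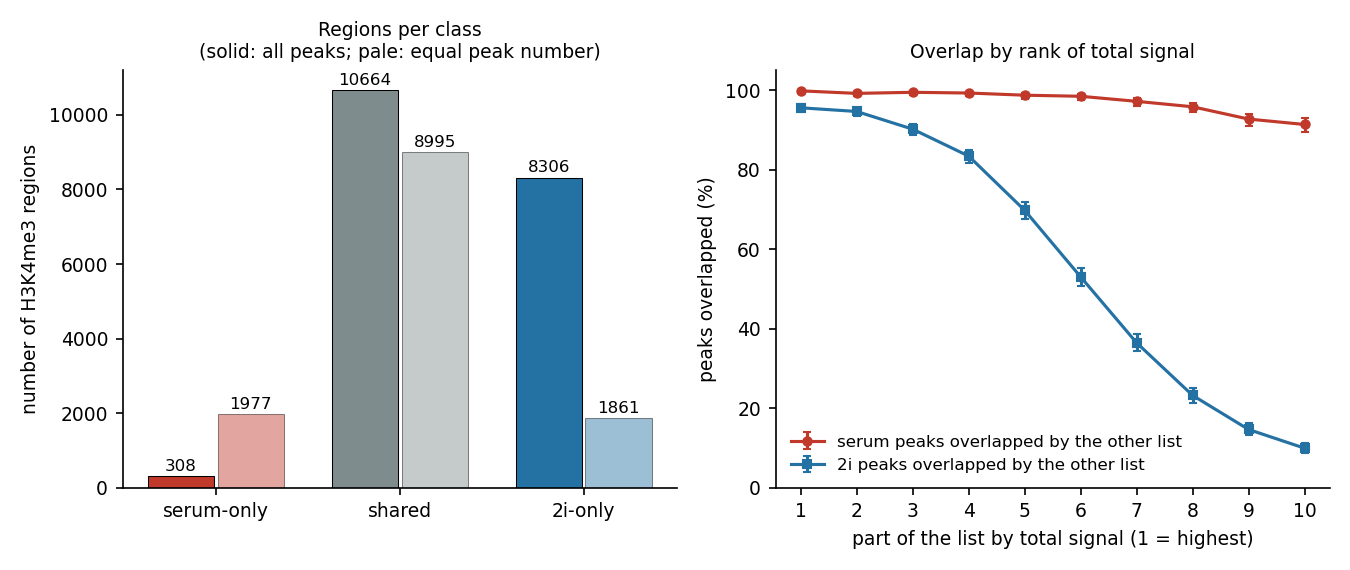
Left, number of merged H3K4me3 regions in each class with all peaks (solid bars) and with the 2i list reduced to the peak number of the serum list (pale bars). Right, percent of peaks overlapped by the other list in each of 10 equal parts of a list, ordered by total signal from high to low, with 95% Wilson intervals; the 2i curve falls from 95.6% to 9.97% while the serum curve stays at 91.4% or more.

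Sequence around the strongest point of a peak (its summit) differed between the classes. For promoter regions, defined as regions within 2000 bp of an annotated TSS, the 1000 bp around the summit held a median of 65 CpG dinucleotides in the shared class (serum peaks; quartiles 49 to 81), 47 in the 2i-only class (29 to 65) and 29 in the serum-only class (18 to 45.5). The median GC content was 60.4%, 57.1% and 55.4%. In distal regions, which are more than 2000 bp from any annotated TSS, the median number of CpG was 34 for shared serum peaks, 30 for 2i-only and 17 for serum-only peaks. The medians at equal peak number were 67, 54 and 52 at promoters and 41.5, 35 and 23 in distal regions, so the serum-only regions remained the poorest in CpG in distal regions, whereas their promoter median was within 2 CpG of the 2i-only one. Stretches of 200 bp from 6 loci that recur below are given from the reference genome (GRCm38.p6, the mm10 build, + strand) with each CpG in capitals. They are the windows nearest the summit of the called peak that hold no annotated exon, and are shown to set CpG-poor against CpG-rich H3K4me3 sites.

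The first pair comes from serum-only regions, the second from 2i-only regions and the third from shared regions whose relative signal differed between the media. The Dnmt3l window lies in an intron of an annotated transcript and is also centred just upstream of an annotated Dnmt3l TSS (-108 bp).
Id1 serum-only, chr2:152736051-152736250, upstream of the TSS, 5 CpG: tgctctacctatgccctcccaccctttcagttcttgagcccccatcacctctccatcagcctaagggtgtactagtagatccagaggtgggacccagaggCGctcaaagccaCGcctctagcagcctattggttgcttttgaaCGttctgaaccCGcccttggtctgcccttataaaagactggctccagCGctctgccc
Gli1 serum-only, chr10:127338963-127339162, intronic, 4 CpG: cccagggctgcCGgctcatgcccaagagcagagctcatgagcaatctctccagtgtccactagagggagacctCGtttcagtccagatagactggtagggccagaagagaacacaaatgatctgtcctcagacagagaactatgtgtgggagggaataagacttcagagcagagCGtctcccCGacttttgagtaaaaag
Hoxd13 2i-only, chr2:74668103-74668302, upstream of the TSS, 28 CpG: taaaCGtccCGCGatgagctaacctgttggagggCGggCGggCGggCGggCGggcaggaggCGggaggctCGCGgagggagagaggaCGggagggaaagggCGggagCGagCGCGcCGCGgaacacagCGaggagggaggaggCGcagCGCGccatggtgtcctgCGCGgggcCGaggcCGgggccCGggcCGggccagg
Dppa3 2i-only, chr6:122627845-122628044, intronic, 8 CpG: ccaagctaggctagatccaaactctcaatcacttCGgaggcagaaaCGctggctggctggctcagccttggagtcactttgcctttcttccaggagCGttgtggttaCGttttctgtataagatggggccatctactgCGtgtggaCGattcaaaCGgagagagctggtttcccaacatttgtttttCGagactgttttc
Sp5 shared and relatively higher in mESC-2i, chr2:70475824-70476023, intronic, 15 CpG: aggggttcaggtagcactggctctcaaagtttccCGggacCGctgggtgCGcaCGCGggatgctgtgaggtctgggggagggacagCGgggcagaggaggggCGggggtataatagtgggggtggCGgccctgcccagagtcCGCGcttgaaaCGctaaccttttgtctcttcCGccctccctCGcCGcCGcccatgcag
Dnmt3l shared and relatively lower in mESC-2i, chr10:78049635-78049834, intronic, 4 CpG: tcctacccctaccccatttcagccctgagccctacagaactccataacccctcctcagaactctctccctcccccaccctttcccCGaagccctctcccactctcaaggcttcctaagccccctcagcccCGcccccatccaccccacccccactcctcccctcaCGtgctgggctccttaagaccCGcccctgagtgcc

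Shared regions were almost entirely promoters. A promoter lay in 91.5% of them (91.0 to 92.0%), in 52.2% of the 2i-only regions (51.2 to 53.3%) and in 60.7% of the serum-only regions (55.2 to 66.0%). Promoters so defined cover 10.9% of the sequence of these chromosomes. Regions inside a transcribed unit but away from promoters made up 3.98% of the shared, 21.4% of the 2i-only and 25.0% of the serum-only class, and intergenic regions made up 4.50%, 26.3% and 14.3%. At equal peak number the promoter share was 92.8% in the shared, 56.9% in the 2i-only and 80.9% in the serum-only class. The share of the serum-only class thus depended on the setting, whereas the 2i-only class had the lowest share of promoters in both. The 2i-only regions were also far from serum peaks, with a median distance of 56.3 kb and 877 of 8306 (10.6%) within 5 kb. Of the serum-only regions, 85 of 308 (27.6%) lay within 5 kb of a 2i peak, and at equal peak number 239 of 1977 (12.1%).

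Serum peaks were the broader ones where both media had a peak. The median region width was 3430.5 bp (3402 to 3467) for shared, 1879 bp (1861 to 1897) for 2i-only and 4066 bp (3857 to 4282) for serum-only regions. With equal peak numbers the medians were 3549, 2475 and 2976 bp, so serum-only regions were the widest class only when all peaks were used, and with the top 5000 peaks of each list the medians were 4335 bp for shared and 3932 bp for serum-only regions. At the same loci, in 10280 of the 10664 shared regions, 1 serum peak faced 1 2i peak, and there the serum peak was the wider one in 7823 (76.1%), with medians of 3186.5 bp in mESC-ser and 2614 bp in mESC-2i. The median ratio of 2i to serum width was 0.852 (quartiles 0.685 to 0.994). The part of sequencing depth in the width was not tested.

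Whether the classes differed in the marks that accompany H3K4me3 was asked with the other stem cell peak lists. H3K27me3 and H3K18la, a lactylation of H3 found at active chromatin, were profiled in both media. H3K27ac, which marks active promoters and enhancers, was profiled in mESC-ser, in a single sample. H3K27me3 was most frequent at 2i-only promoters. A serum H3K27me3 peak covered 42.8% of them (1857 of 4338; 41.3 to 44.3%), against 26.5% of shared promoters (25.7 to 27.4%) and 20.9% of serum-only promoters (15.6 to 27.2%). With the 2i H3K27me3 list the shares were 30.8%, 17.1% and 21.4%. The serum H3K27me3 list held 24436 peaks over 86.6 Mb and the 2i list 24613 peaks over 145 Mb. What part depth and threshold have in differences between these lists, here and below, was not tested. Serum H3K27me3 without 2i H3K27me3 was found at 13.0% of the 2i-only, 10.2% of the shared and 6.42% of the serum-only promoters, and the reverse at 0.991%, 0.717% and 6.95%. At equal peak number the share of 2i-only promoters with serum H3K27me3 was higher, at 56.5% (53.5 to 59.4%), against 27.3% for shared and 22.2% for serum-only promoters. Promoters at which H3K4me3 was called in mESC-2i alone thus carried H3K27me3 in mESC-ser more often than the other classes in both settings. Distal regions did not follow this order, with serum H3K27me3 at 21.0% of 2i-only and 29.6% of shared regions, and 28.8% and 34.3% at equal peak number. Active marks went the other way. Serum H3K27ac was present at 22.1% of 2i-only, 71.1% of shared and 68.4% of serum-only promoters, and serum H3K18la at 25.6%, 55.0% and 86.1%. The shares with H3K18la at equal peak number were 28.2%, 56.6% and 49.9%, so serum-only promoters were then below the shared ones, and those with H3K27ac were 22.2%, 73.1% and 60.4%. The 2i-only promoters had the lowest share of both marks in either setting.

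Serum-only distal regions almost always carried the active marks. Of the 121, 117 overlapped a serum H3K18la peak (96.7%, 91.8 to 98.7%) and 111 a serum H3K27ac peak (91.7%, 85.5 to 95.4%), whereas 10 overlapped serum H3K27me3 (8.26%). Of the 3968 2i-only distal regions, 39.4% overlapped serum H3K18la, 49.6% overlapped 2i H3K18la and 22.2% overlapped serum H3K27ac. The 904 shared distal regions lay between, with 78.9% for serum H3K18la and 74.0% for serum H3K27ac. A large part of the serum-only distal regions, 84.3%, also had an H3K18la peak in mESC-2i, where no H3K4me3 peak was called. The regions of this class are wider than those of the 2i-only class, and a wider region meets a peak of another list more easily. The share of serum-only distal regions with serum H3K18la was 91.5% at equal peak number (88.3 to 93.9%).

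H3K4me3 of differentiated tissue was used to see how widely the promoters are marked. A peak in the list of gastrocnemius muscle (GAS) covered 92.3% of shared, 63.2% of 2i-only and 50.8% of serum-only promoters, and a peak in the list of post-ischemia macrophages (PIM) covered 85.0%, 55.1% and 45.5%. The order of 2i-only and serum-only promoters turned at equal peak number, with GAS peaks at 63.8% of 2i-only and 81.7% of serum-only promoters and PIM peaks at 52.4% and 74.4%. For distal regions the shares with a GAS peak were 37.2%, 13.0% and 22.3%, and at equal peak number 34.3%, 14.2% and 37.3%. Shared promoters were thus the most widely marked in both settings, and the distal regions of each class were far less often marked in these tissues than its promoters.

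**Figure D2:**
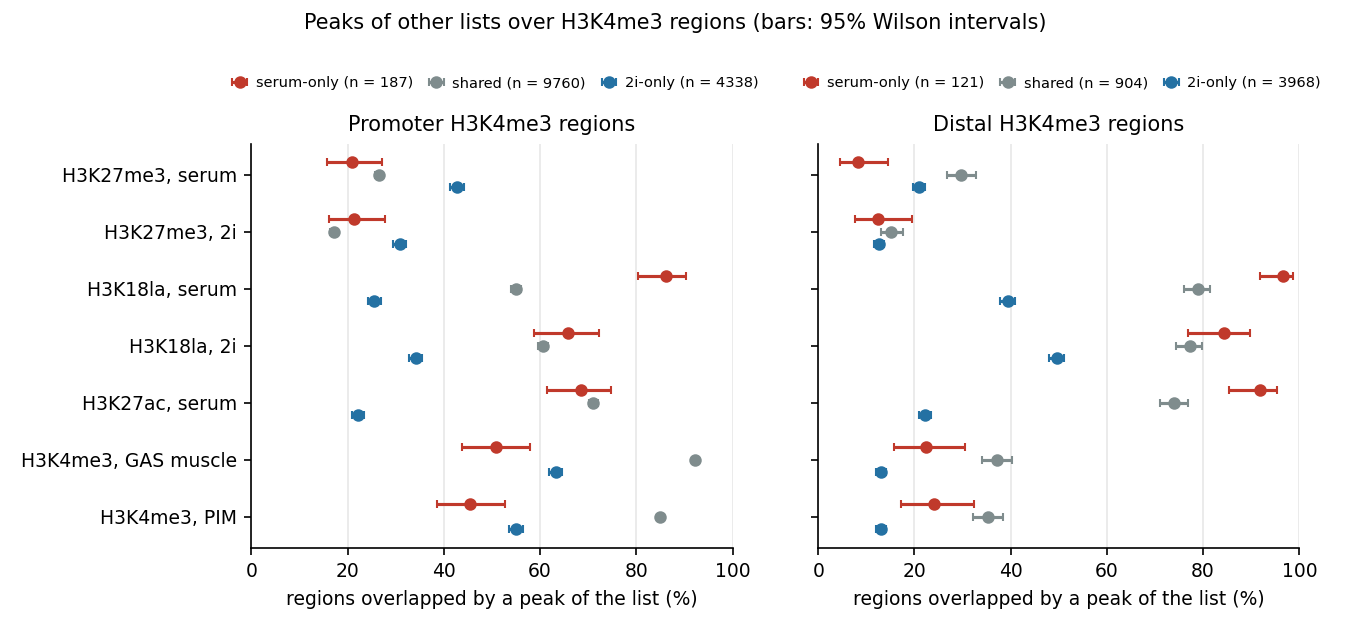
Percent of serum-only, shared and 2i-only H3K4me3 regions overlapped by a peak of another list, with all peaks used, for promoter regions (left) and distal regions (right); points are shares and bars 95% Wilson intervals. 2i-only promoters lie highest for H3K27me3 (42.8% in serum), and serum-only distal regions highest for serum H3K18la (96.7%) and H3K27ac (91.7%).

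At the level of genes, 10489 of 21755 protein-coding genes had an H3K4me3 peak at a promoter in both lists. A promoter peak in the 2i list alone was found for 2951 genes (13.6% of all protein-coding genes) and in the serum list alone for 122 genes (0.561%), and 8193 genes had none. With equal peak numbers 795 genes were called in 2i only (3.65%) and 1409 in serum only (6.48%). An H3K27me3 peak lay at a promoter of 27.04% of all protein-coding genes in mESC-ser and of 22.5% in mESC-2i. Of the 2951 genes called in 2i only, 48.5% carried a serum H3K27me3 peak at a promoter, against 26.2% of the genes called in both lists. These shares were 63.1% and 26.3% at equal peak number. The genes called in serum only had serum H3K18la at 73.8% and those called in 2i only at 20.7%, and at equal peak number at 48.5% and 23.9%, against 58.8% of the genes called in both.

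For genes called in both lists the relative heights of the strongest promoter peaks were compared as a log2 ratio of mESC-2i over mESC-ser. Across the 10489 genes the median ratio was -0.05 (quartiles -0.34 to 0.25, SD 0.46 over genes), and 45.7% of them had a ratio above 0. The relative height was at least 2-fold higher in mESC-2i for 138 genes (1.32%) and at least 2-fold lower for 217 (2.07%). With no replicate error, a single ratio within the quartiles cannot be told from the bulk of the genes. The strongest promoter peak of a gene can lie at different sites in the lists, as it does among the listed genes at Rnf43, Etv5 and Tet3.

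Housekeeping genes served as a check of the lists. Of the 8 analysed here, 7 were called in both media (48.2% of all genes). Among them was Gapdh, a glycolytic enzyme, with a maximum signal of 766 in mESC-ser and 230 in mESC-2i and a log2 ratio of relative heights of -0.80. Rpl13a, a ribosomal protein, had a ratio of 0.69 and Ywhaz, a 14-3-3 protein, one of -0.61. B2m, the light chain of MHC class I, was called in the 2i list only, with a relative height of 0.67. Genes that every cell uses thus varied by up to 0.80 in log2 ratio, and 1 of them was missing from the serum list. B2m was called in neither list at equal peak number, and Pgk1, another glycolytic enzyme, was then missing from the 2i list.

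Core pluripotency genes were marked in both media, with 7 of 8 called in both (48.2% of all genes). The maximum signal at Pou5f1, which encodes OCT4, was 813 in mESC-ser and 280 in mESC-2i (relative heights 2.77 and 1.83, log2 ratio -0.60), and at Nanog 378 and 274 (1.29 and 1.79, 0.47). Sox2 had a ratio of 0.31. The RNA-binding protein gene Lin28a had the lowest ratio of the list, with 308 in mESC-ser and 62 in mESC-2i (1.05 and 0.41, -1.38), and its total signal gave -1.74. Its promoter was no longer called in mESC-2i at equal peak number. Utf1, a chromatin-bound stem cell factor, had a ratio of -0.60. Dppa4 was called in 2i only, by a weak peak at percentile 5.44 of the list by total signal, and was lost at equal peak number. The median ratio of the 7 genes was -0.31, below the -0.05 of all genes.

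Of 14 genes of naive pluripotency, 13 were called in both media (48.2% of all genes), and 10 of the 13 had a ratio above 0 (45.7% of all genes called in both), with a median of 0.34 by height and 0.55 by total signal. The lowest ratio was that of Klf2 (-0.44), none reached 2-fold, and the median lies within the range of the housekeeping genes (-0.80 to 0.69). The largest ratios by height were those of Nr0b1 (relative height 0.64 in mESC-ser and 1.18 in mESC-2i, 0.88), Esrrb (0.62, from unscaled maxima of 439 in serum and 352 in 2i) and Klf4 (1.13 and 1.71, 0.59), which encode transcription factors of the naive network. Height and total did not always go together. Tfcp2l1, another factor of this network, had a ratio of -0.03 by height and 1.78 by total signal. Dppa3, which encodes a factor that protects DNA from demethylation in the zygote, was called in 2i only, with a maximum of 75, a relative height of 0.49 and a place at percentile 64.7 of the 2i list, and remained called at equal peak number. It is one of 2 loci of the 2i-only class whose sequence is given above. A serum H3K27me3 peak lay at the promoters of 7 of the 14 genes (all genes, 27.04%) and a 2i H3K27me3 peak at 1 (22.5%).

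Of 14 formative and primed genes, 13 were called in both media (48.2% of all genes), and 9 of the 13 had a ratio above 0 by height (45.7% of all genes called in both), with a median ratio of 0.16 by height and -0.23 by total signal, so the sign of the median depended on the measure. Dnmt3l, which encodes the catalytically inactive partner of the de novo DNA methyltransferases, had a maximum of 251 in mESC-ser and 49 in mESC-2i (0.86 and 0.32, -1.42), and its peak was 4425 bp wide in mESC-ser and 2246 bp in mESC-2i. Like Lin28a it was no longer called in mESC-2i at equal peak number. Otx2, a homeobox factor of the primed epiblast, was relatively higher in mESC-2i by height (0.74 and 1.51, 1.03), and Pou3f1 had a ratio of 0.69. Fgf5, a marker of the primed epiblast, was called in 2i only, at percentile 37.5 and a relative height of 0.52, and was lost at equal peak number. A serum H3K27me3 peak lay at 12 of the 14 genes (all genes, 27.04%) and a 2i H3K27me3 peak at 8 (22.5%).

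Response genes of the FGF-ERK pathway, which the MEK inhibitor of 2i medium blocks, had a median ratio of -0.32 by height and -0.39 by total signal over the 16 of 18 genes called in both media (48.2% of all genes), and 11 of the 16 had a ratio below 0, as did 54.3% of all genes called in both. The immediate early gene Egr1 had a maximum of 705 in mESC-ser and 189 in mESC-2i (2.41 and 1.24, -0.96). Spred1, an inhibitor of RAS-ERK signalling, had a ratio of -0.93 and Dusp6, a phosphatase of ERK, one of -0.83. Myc (0.54) and Dusp4 (0.40) had ratios above 0. The median by height lies within the quartiles of all genes called in both (-0.34 to 0.25). It is also within the range of the housekeeping genes (-0.80 to 0.69) and near the median of the core pluripotency genes (-0.31). Spry1, a feedback inhibitor of the same pathway, was an exception: it was called in 2i only by a strong peak of 4657 bp, with a relative height of 1.35 and a place at percentile 95.1. Fosl1, an AP-1 factor, was also called in 2i only and was lost at equal peak number. These 2 of 18 genes are near the 13.6% of all genes called in 2i only.

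Wnt target genes, whose pathway the GSK3 inhibitor activates, had a median of the opposite sign. Of 15, 12 were called in both media (48.2% of all genes), 8 of the 12 had a ratio above 0 (45.7% of all genes called in both), and the median was 0.31 by height and 0.40 by total signal. The median by height lies within the range of the housekeeping genes (-0.80 to 0.69). Sp5, a transcription factor induced by Wnt, had a maximum of 169 in mESC-ser and 241 in mESC-2i (0.58 and 1.58, 1.45). Cdx2, a caudal homeobox factor, followed (0.53 and 1.16, 1.13), and Dkk1 and Lef1 had ratios of 0.81 and 0.75. Axin2, a widely used reporter of Wnt signalling, had a ratio of 0.27 by height and 0.90 by total. Rnf43, which encodes a ubiquitin ligase that removes Wnt receptors, went the other way (-0.61) and was called in serum only at equal peak number. Its serum and 2i peaks lay at different sites and did not overlap. Cdx1 and the pathway inhibitors Nkd1 and Nkd2 were called in 2i only, and of these Cdx1 remained called at equal peak number, with a relative height of 0.73. H3K27me3 was called at 14 of the 15 genes in mESC-ser (all genes, 27.04%) and at 6 in mESC-2i (22.5%).

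**Figure D3:**
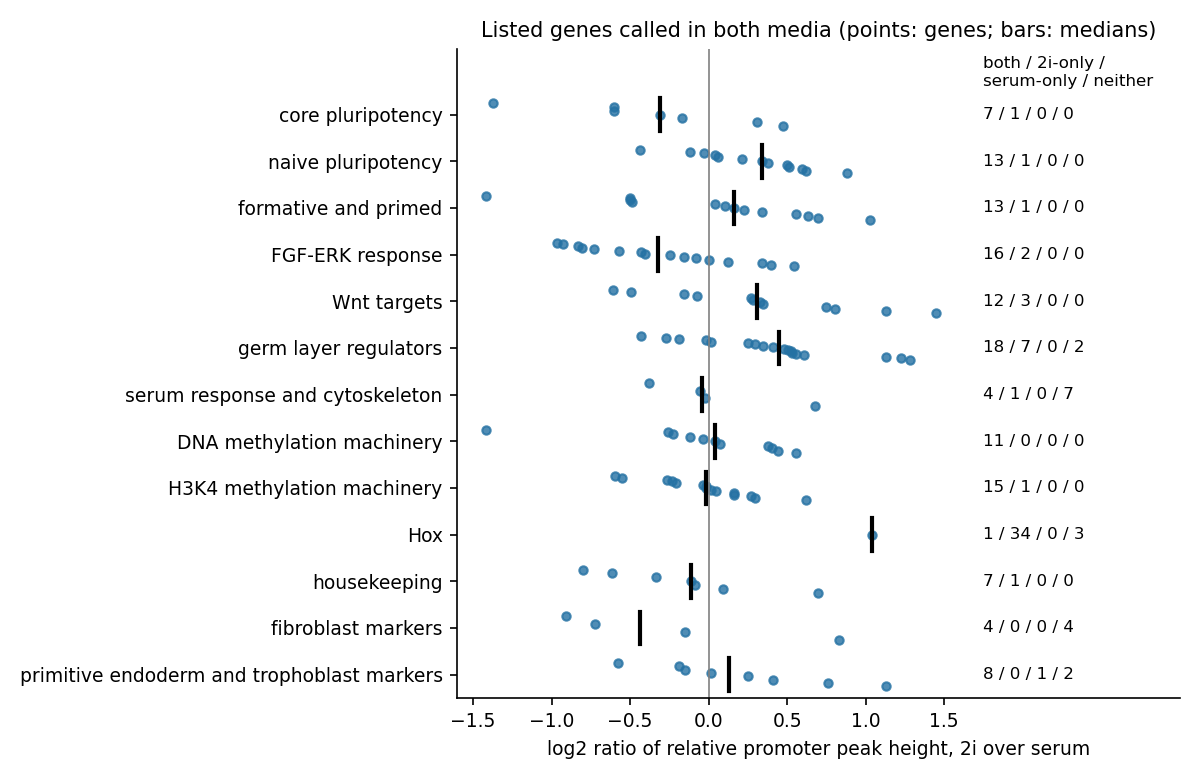
Log2 ratio of the relative height of the strongest promoter peak, mESC-2i over mESC-ser, for genes called in both lists (points), with the median of each list (black bar); numbers on the right count the genes called in both, 2i only, serum only and neither. Naive pluripotency, Wnt targets and germ layer regulators have medians of 0.34, 0.31 and 0.45, and FGF-ERK response genes a median of -0.32. Core pluripotency genes have a median of -0.31 and fibroblast markers one of -0.44. Each of these medians lies within the range of the housekeeping genes (-0.80 to 0.69).

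Regulators of the germ layers, most of them silent in stem cells, had a median ratio above 0. Of 27 genes, 18 were called in both media (48.2% of all genes), 7 in 2i only (13.6% of all genes), 0 in serum only and 2 (Hnf4a and Tbx6) in neither. Among the 18, 14 had a ratio above 0, against 45.7% of all genes called in both, and the median was 0.45 by height and 0.75 by total signal. By height, this median is within the range of the housekeeping genes (-0.80 to 0.69). The heart and limb factor Hand2 had a ratio of 1.28, the T-box factor Eomes one of 1.23 and Lhx1, a LIM homeobox factor, one of 0.61 by height and 1.97 by total. The genes called in 2i only were Foxa1, Mixl1, Msx1, Msx2, Neurog1, Nkx2-2 and Nkx2-5, and 6 of them, without Foxa1, remained so at equal peak number (3.65% of all genes), where Neurog3 was called in serum only. Msx1, a homeobox factor, had a maximum of 180, a relative height of 1.18 and a place at percentile 74.3. Of the 27 genes, 25 carried an H3K27me3 peak in mESC-ser (all genes, 27.04%) and 25 in mESC-2i (22.5%).

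The Hox genes, which specify position along the body axis and lie in 4 clusters, were the extreme case. Of the 38 analysed here, 34 were called in 2i only (89.5%, against 13.6% of all protein-coding genes), 1 in both lists (Hoxc13) and 3 in neither (Hoxa4, Hoxb3 and Hoxb8). The 2i list held 42 peaks at the promoters of these genes, and 1 of them overlapped a serum peak. Their median relative total was 0.651 (0.314 to 3.31), and 25 of the 42 lay above the lowest relative total of the serum list. Neighbouring genes can share a peak, as Hoxa9 and Hoxa10 do. All 4 clusters took part: 9 of 10 Hoxa, 8 of 10 Hoxb, 9 of 9 Hoxc and 9 of 9 Hoxd genes were called in mESC-2i, against 0, 0, 1 and 0 in mESC-ser. The broadest peak covered 11698 bp at Hoxc12, and Hoxd13, whose CpG-rich upstream sequence is given above, had a maximum of 110 and a relative height of 0.72. H3K27me3 was called at the promoters of 38 genes in mESC-ser (all genes, 27.04%) and of 34 in mESC-2i (22.5%). At equal peak number 24 Hox genes were still called in 2i only (all genes, 3.65%), 1 in both and 0 in serum only. With the strongest 5000 peaks of each list, 8 were called in 2i only (4.33% of all genes).

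**Figure D4:**
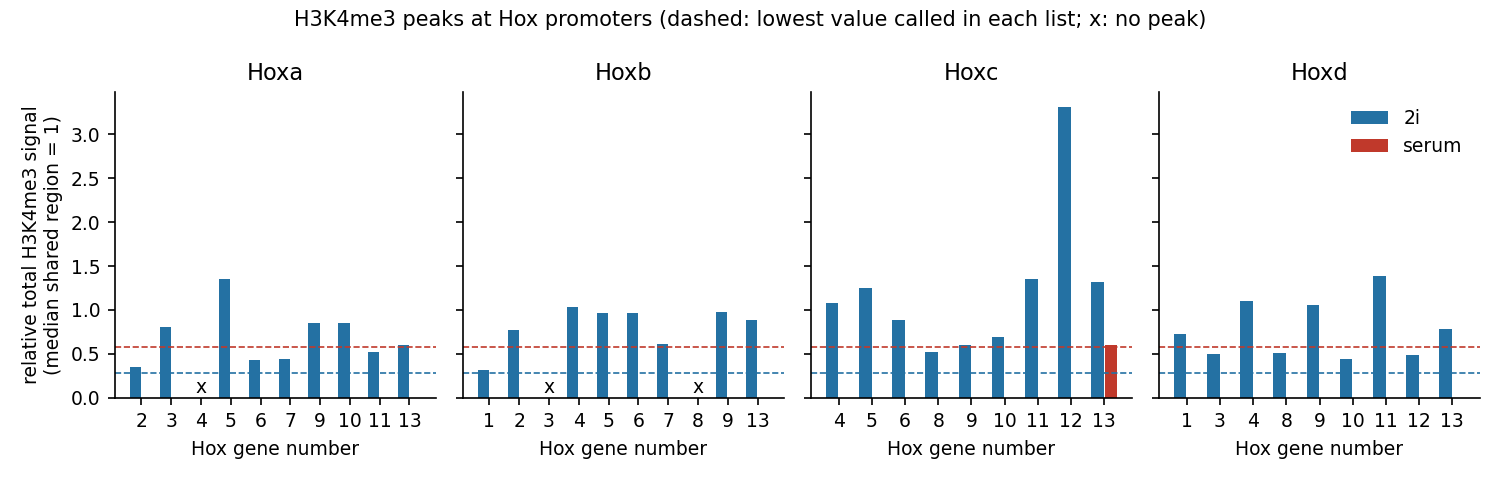
Relative total H3K4me3 signal of the strongest promoter peak of each of the 38 Hox genes in mESC-2i (blue) and mESC-ser (red), by cluster; no bar means no called peak, crosses mark genes called in neither list and dashed lines the lowest relative total of each list (0.582 serum, 0.280 2i). Among these genes, a serum bar is present at Hoxc13 alone.

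Germline and totipotency genes were mostly without a peak. Of 18 germline genes 15 were called in neither list (all genes, 37.7%), and Rpl10l, Sohlh2 and Tex19.1 were called in 2i only, with relative heights of 1.28, 0.76 and 0.79. Their number is near the 13.6% of all genes called in 2i only with all peaks, and all 3 remained so at equal peak number (3.65% of all genes). Of 7 genes of the two-cell stage, 6 were called in neither list, and Duxf3 was called in 2i only (relative height 1.91). Duxf3 lies in a repeated array, where reads cannot be assigned with certainty. Among 12 serum response and cytoskeleton genes, 4 were called in both media (48.2% of all genes), with a median ratio of -0.04. Thbs1 was called in 2i only (13.6% of all genes) and 7 in neither (37.7%). Of the 16 genes of H3K4 methylation itself, 15 were called in both media (48.2% of all genes), with a median ratio of -0.02. The other, Kdm5c, an X-linked demethylase of H3K4me3, was called in 2i only (13.6% of all genes) and, at equal peak number, in neither list. Of 11 DNA methylation genes all were called in both media (48.2% of all genes), with Dnmt3l at -1.42 and the others between -0.26 and 0.55. At equal peak number 10 were called in both and Dnmt3l in serum only.

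Markers of other cell types were also followed. Of 8 fibroblast markers, 4 were called in both media, a share near the 48.2% of all genes, among them Vim with a ratio of 0.83, and Thy1 (-0.90) and Col1a1 (-0.73), which had H3K27me3 peaks in both media; the other 4 were called in neither. Thy1 and Col1a1 were called in serum only at equal peak number. Of 11 markers of primitive endoderm and trophoblast, 8 were called in both media (48.2% of all genes) and 2 in neither (37.7%). The median ratio of the 8 was 0.13. Krt18, an epithelial keratin, was called in serum only (0.561% of all genes), by a peak of 5178 bp with a maximum of 134 at percentile 10.4 of the serum list. Its partner Krt8 was called in both media with a ratio of -0.58, and in serum only at equal peak number. H3K27me3 was called at 10 of the 11 in each medium (all genes, 27.04% in mESC-ser and 22.5% in mESC-2i). What part other cell types have in these peaks was not tested.

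The serum-only regions were mostly weak in their own list, with a median percentile of 16.8 by total signal. The 10 of largest total signal had relative totals of 1.56 to 2.42, and all 10 overlapped serum H3K18la and serum H3K27ac peaks, as did 90.3% and 77.6% of the class. The first covered the promoter of Gli1, a transcription factor of the Hedgehog pathway (chr10:127333889-127342918, maximum 283, relative height 0.97). The second, of 14773 bp, lay at a promoter of Nfic, a nuclear factor I gene (chr10:81406455-81421227, 203, 0.69). Slc7a7, which encodes an amino acid transporter subunit (chr14:54410692-54415530, 327, 1.12), and Id1, which encodes an inhibitor of helix-loop-helix factors and is a classical BMP target (chr2:152735767-152740210, 431, 1.47), followed. Nrxn2, a neurexin, and Arhgef1, a guanine nucleotide exchange factor, had relative heights of 1.14 and 1.08, and another region covered non-coding promoters (Gm16876 and Gm8378, maximum 380). The other 3 had no promoter and lay 7998 bp from C130032M10Rik (0.84), 7788 bp from Car4 (1.55) and 35630 bp from Robo1 (0.87), the nearest protein-coding TSS. Of the 122 genes called in serum only, 41 lay in regions that were shared as a whole, where the 2i peak did not reach the promoter, as at the integrin gene Itgb7, whose serum peak was 19608 bp wide.

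The strongest 2i-only regions were repeats. The 10 of largest total signal had relative totals of 5.39 to 40.3, and 51.4 to 96.3% of their bases were repeat-masked in the reference. The first lay at the start of the assembled chromosome 9 (chr9:3015139-3026087), with a maximum of 14015 and a relative height of 91.6, over predicted genes (Gm10717 to Gm10721). The next were at Gm21738 on chromosome 14 (34.1), at Gm10722 and Gm11168 on chromosome 9 (18.6) and at Gm10801 on chromosome 2 (43.7). The other 6 had no promoter and lay on chromosomes 19, 9, X, 3, 1 and 13, with relative heights of 44.7, 38.7, 36.8, 36.1, 32.8 and 23.0. No blacklist of such sites was applied here, and whether the deposited lists had been filtered with one is not given in the sources used here. Such sites collect reads of many copies, and all 10 overlapped a serum H3K27me3 and a serum H3K18la peak (32.4% and 32.2% of the class), so the absence of a serum H3K4me3 call there is not matched by an absence of signal in the other serum lists. Of the 2i-only regions 1035 (12.5%) were repeat-masked over at least 90% of their bases, against 126 of the shared (1.18%) and 0 of the serum-only regions. Among 2i-only regions with less than 50% of masked bases, the strongest with a protein-coding promoter outside repeated arrays were Hoxc12 (relative total 3.31) and Osm, which encodes the cytokine oncostatin M of the LIF family (2.81, relative height 1.87).

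Among shared regions, those over protein-coding promoters with the largest differences in height were ranked. Distal shared regions varied more as a class (SD of the log2 ratio 0.80, against 0.47 for promoter regions). The 5 coding promoter regions with the highest log2 ratio were Gm10800 (5.09; a region with 81.7% repeat-masked bases and a maximum of 54949), the tyrosine kinase gene Src (167 in mESC-ser and 329 in mESC-2i, 1.92), the homeobox gene Lbx1 (153 and 270, 1.76), the neuronal factor Neurod2 (153 and 246, 1.62) and Pxdc1 (179 and 273, 1.55). Apart from Gm10800, their serum heights were low, at 0.52 to 0.61, and each carried serum H3K27me3, as did 26.5% of all shared promoters. The 5 with the lowest ratio were Ccdc40, a gene of cilia assembly (383 and 35, -2.51), the region of Acadvl and Dlg4 (465 and 58, -2.07), the endothelin-converting enzyme gene Ece1 (393 and 52, -1.98), the region of Mc1r and Tubb3 (328 and 45, -1.93) and Bcl6b, a transcriptional repressor (445 and 63, -1.88). All 5 had serum H3K27ac, and 4 had no serum H3K27me3, Bcl6b being the exception. These counts are near those of all shared promoters, of which 71.1% had serum H3K27ac and 26.5% serum H3K27me3. A shared region must pass the threshold of the serum list, which lies higher, so the ratios have less room above 0 than below it.

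The ratio was also compared with H3K27me3 over all shared regions. Shared promoters without H3K27me3 in either medium had a median log2 ratio of -0.09 (-0.10 to -0.08, 7099 regions), those with H3K27me3 in both media 0.20 (0.17 to 0.23, 1598 regions) and those with H3K27me3 in mESC-ser only 0.12 (0.07 to 0.15, 993 regions). The 70 promoters with H3K27me3 in mESC-2i only had a median of -0.47 (-0.60 to -0.31). In distal regions the medians were -0.17 (626 regions) without H3K27me3 and 0.56 (0.47 to 0.67, 141 regions) with H3K27me3 in mESC-ser only. Within each of 4 bins of mean height with equal numbers of regions, promoters with H3K27me3 in both media had a higher median (0.15 to 0.28) than those without (-0.15 to -0.06). The medians by total signal had the same order for promoters, at -0.10 without H3K27me3, 0.15 with it in both media, 0.06 with it in mESC-ser only and -0.64 with it in mESC-2i only. These differences in medians are smaller than the spread of the regions, whose quartiles were -0.16 and 0.55 for promoters with H3K27me3 in both media. For promoters grouped by H3K18la the medians by height were -0.08 to 0.04, and by total signal -0.20 to 0.02, the lowest being those with H3K18la in mESC-ser only. In distal regions the ratio was 0.69 (0.56 to 0.83) for the 56 regions with H3K18la in mESC-2i only and -0.18 (-0.42 to 0.07) for the 71 with H3K18la in mESC-ser only, whose interval includes 0.

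**Figure D5:**
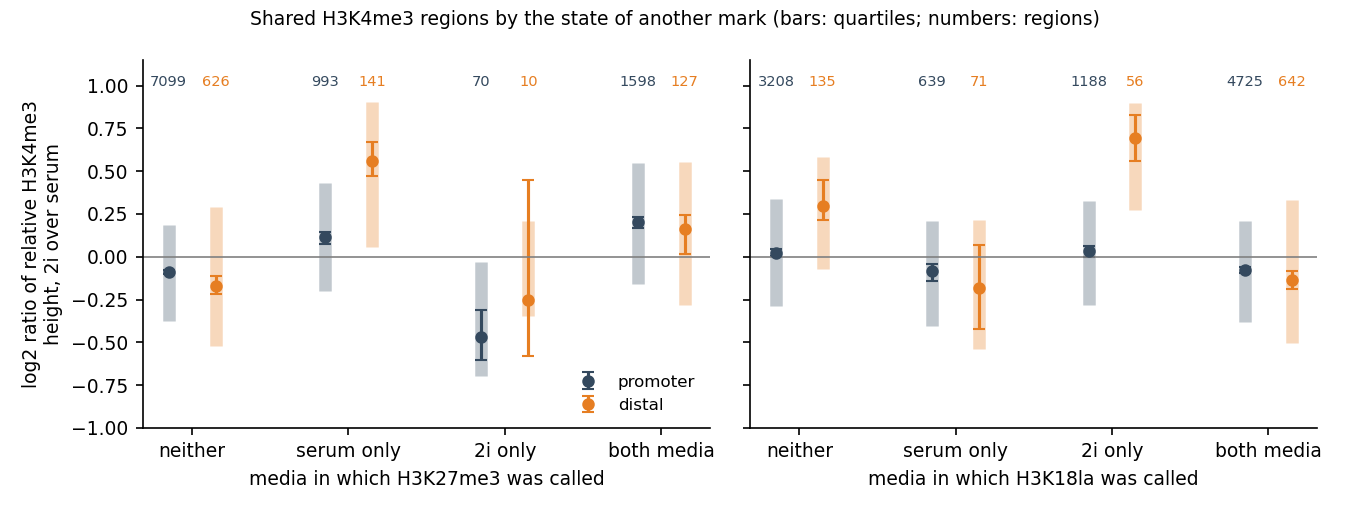
Log2 ratio of relative H3K4me3 height, mESC-2i over mESC-ser, of shared promoter and distal regions grouped by the media in which H3K27me3 (left) or H3K18la (right) was called; points are medians with 95% intervals, broad bars span the quartiles and numbers count regions. Promoters with H3K27me3 in both media have a median of 0.20 and those with it in mESC-2i only one of -0.47.

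Chromosome X differed from the autosomes. Of its 556 regions 403 were 2i-only (72.5%), against 42.2% of the autosomal regions and 30.9 to 49.0% on the single autosomes. Of 948 X-linked protein-coding genes, 203 were called in 2i only, 135 in both lists and 3 in serum only, against 13.6%, 48.2% and 0.561% of all protein-coding genes. The 149 shared regions of the X were low in both media, with median relative heights of 0.70 in mESC-ser and 0.69 in mESC-2i. At equal peak number 60 of 213 regions of the X were 2i-only (28.2%) and 38 were serum-only, against 14.3% 2i-only on the autosomes.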

How the data were processed

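CUT&Tag with an antibody against H3K4me3 was run on whole cells, in 2 samples for each medium. Per the labels and the methods, the authors trimmed reads (Trim Galore 0.6.6), aligned them to mm10 (Bowtie2 2.4.4, SAMtools 1.13), computed fragment coverage (bedtools 2.30), combined the coverage of replicates and called peaks with SEACR 1.3 in stringent mode with no control track. By the methods, a set top fraction of the called peaks was selected for each list. The deposited signal columns, total and maximum coverage per peak, hold whole numbers and are not scaled for depth. The number of reads per sample is not part of the lists and was not analysed here. The names of 3 stem cell lists (H3K4me3, H3K27me3 and H3K18la) give no medium. The serum samples' descriptions name the H3K18la list so, and the other 2 with the medium added. All 3 were taken as serum lists, since the only other stem cell lists of these marks here are named for 2i. The methods state that peaks in blacklisted regions were removed for later analysis, and no blacklist was applied here.

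Regions, promoters (2000 bp around each TSS of 139486 GENCODE vM21 transcripts) and genes were overlapped at 1 bp with Python 3.11.15, numpy 2.4.6 and pandas 2.3.3. The functions were checked against bedtools 2.31.1, and 2000 of 2000 simulated regions were classed as made. Shares carry Wilson intervals (statsmodels 0.14.6), medians binomial ones (scipy 1.17.1). Figures used matplotlib 3.10.9. Nothing was tested, since each medium has 1 list.

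The gene lists and rules were chosen with earlier results of these data known. Named were each listed gene called in 1 medium only, up to 3 per list with the largest ratios and a few others of known role, the 10 strongest serum-only and 2i-only regions, and the 5 highest and lowest ratios. Alternatives were an equal peak number, the top 5000 peaks, 50% overlap, merging over 1000 bp, promoters of 1000 bp, protein-coding TSS only and, added after seeing the data, removal of regions at least 90% repeat-masked. Peaks on chromosome Y and mitochondrial DNA were left out. Results of 2 listed genes are not reported here.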

Additional observations from a re-analysis of the deposited data

Results flagged for a closer look

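The comparisons leave out peaks outside chromosomes 1 to 19 and X, and some were present there with no control list to set them against. The serum list held 4 peaks on chromosome Y and 2 on mitochondrial DNA, and the 2i list held 19 on chromosome Y and 2 on mitochondrial DNA.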

How the results depend on the processing

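The sizes of the classes depended on how many peaks entered. With the 2i list reduced to the peak number of the serum list, serum-only regions went from 308 to 1977 and 2i-only regions from 8306 to 1861. Median widths became 2976 bp (serum-only), 2475 bp (2i-only) and 3549 bp (shared), promoter shares 80.9%, 56.9% and 92.8%, and genes 1409 serum-only and 795 2i-only. With the top 5000 peaks of each list there were 1287 serum-only, 1253 2i-only and 3706 shared regions, median widths of 3293 bp (2i-only) and 4335 bp (shared), promoter shares of 90.7% (serum-only), 78.4% (2i-only) and 96.2% (shared), and 1312 serum-only, 942 2i-only and 4291 shared genes. Promoters of 1000 bp gave shares of 48.6% for 2i-only and 91.0% for shared regions, and TSS of protein-coding transcripts alone gave 41.6% (serum-only), 40.1% (2i-only) and 86.2% (shared), so that serum-only and 2i-only shares no longer differed by more than their intervals. Without repeat-masked regions, an alternative chosen after seeing the data, the 2i-only median width was 1959 bp and promoter shares were 58.8% (2i-only) and 92.6% (shared), with serum-only at 60.7%, whose interval includes the 2i-only share. The 50% overlap and the merging over 1000 bp moved none of these values beyond its counting interval or 1.5 times. The order of the promoter shares, with shared regions highest, was the same in each of these settings. No paired analysis was possible because the replicates of each medium were pooled before peaks were called. The serum list ends at a higher relative signal, and a region absent from it may hold signal below its threshold. The part of sequencing depth in this was not tested.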

Other observations

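Gene families, taken by symbol, differed in how many of their protein-coding members were called in the 2i list only, against 13.6% of all protein-coding genes. Among homeobox families it was 6 of 14 Nkx genes, 3 of 10 Lhx and Lmx genes, 2 of 6 Dlx genes, and 2 of 6 Irx genes, and among Pax genes 3 of 9. Of 19 Wnt ligand genes, 5 (Wnt1, Wnt10a, Wnt4, Wnt5b and Wnt8b) were called in 2i only and 13 in both lists, with a median log2 ratio of relative height of 0.60. At equal peak number (3.65% of all genes) the counts called in 2i only were 5 Nkx, 2 Lhx and Lmx, 1 Dlx, 1 Irx, 2 Pax and 4 Wnt genes. Sox genes (1 of 19), Fox genes (4 of 44) and Fgf genes (2 of 22) were below the share of all genes with all peaks, with 1, 1 and 0 genes at equal peak number. In the Fzd receptor family 10 of 10 genes were called in both lists (48.2% of all genes), and at equal peak number 9 were in both and 1 in serum only. Protocadherin genes, adhesion molecules of neurons that lie in clusters, were called in 2i only in 27 of 69 cases and at equal peak number in 3. Serum H3K27me3 was called at 67 of the 69 (all genes, 27.04%). Proteasome subunit genes were called in 2i only in 8 of 39 cases (3 at equal peak number) and ribosomal protein genes in 3 of 76. Olfactory receptor genes, which stem cells do not use, were called in neither list in 1086 of 1093 cases, against 37.7% of all genes.

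Short motifs were counted on both strands in the 300 bp around each summit. GGGCGG, the core bound by SP and KLF factors, was present in 64.0% of serum peaks in shared promoters, 46.5% of 2i-only and 44.9% of serum-only promoters, against 61.0% of all serum and 49.3% of all 2i peaks. ATCAAAG, the TCF/LEF motif, was present in 3.07% of 2i-only distal peaks (2.58 to 3.66%) and 4.96% of serum-only ones (6 of 121, 2.29 to 10.4%). In shared distal regions it was present in 1.72% of 2i peaks (1.06 to 2.78%) and 2.09% of serum peaks (1.34 to 3.23%). The Esrrb motif TCAAGGTCA was present in 0.516% of all 2i and 0.354% of all serum peaks, and in 0.296% of the peaks of either list in shared promoters.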
